A study of Mus musculus with 8 samples.

Results

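The Il1b-dominant mature neutrophils of the mouse periosteum were examined as 1 class of single cells. A cell belonged to the class when S100a8 and S100a9 made up at least 2% of its unique molecular identifiers (UMIs, each standing for 1 captured RNA molecule), when it held at least 1 UMI of Csf3r and of Il1b and none of the B cell gene Cd79a, when the granule genes Ngp, Camp and Ltf together made up under 0.5% of its UMIs, and when Il1b, Il1r2 and Ccrl2 together had at least as many UMIs as the stefin genes Stfa2l1, Stfa1, Cstdc4 and Cstdc5. These conditions held in 2086 of 12253 cells, of which 1101 came from the library of normal diet (ND) and 985 from that of high-fat diet (HFD). The rule is a set of limits on measured counts, so the class is a range within the mature neutrophils and its levels of the genes named in the rule are given as a description.

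The cells came from the periosteum, the membrane that covers bone, of left femurs and tibias of male C57BL/6J mice that were 16 weeks old. One group had received normal diet chow and the other a high-fat diet. The study used them to ask how signalling in periosteal cells differs under HFD. With this diet it describes a loss of nerve fibers in the periosteum, both sensory and sympathetic. The bones were digested with collagenase and dispase, and the cells were captured in droplets without a sort, so blood and marrow cells released with the tissue could be among them. The labels list 4 samples per diet, but the cells of each diet lie in 1 pooled matrix in which no barcode tells which mouse a cell came from. With 1 library per diet, no test between diets could be made, and diet and library cannot be told apart. The ND library held 6314 barcodes and 48558889 UMIs, of which 6029 cells were kept, and the HFD library 6636 barcodes and 49940976 UMIs, of which 6224 were kept. Kept cells had over 500 and under 8000 detected genes and under 20% mitochondrial UMIs. The libraries shared 15 barcode sequences, which 5 ND and 1 HFD cells of the class carried.

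Neutrophils are short-lived white blood cells that leave the marrow in response to granulocyte colony-stimulating factor, which acts through the receptor Csf3r, and move towards chemokines through Cxcr2. While they mature they make granule proteins first and lose those transcripts later, and mature cells can transcribe cytokine and chemokine genes after contact with microbial products or injured tissue. IL-1β, the product of Il1b, is made as an inactive precursor that caspase-1 cleaves in the inflammasome, it acts through the receptor Il1r1 with Il1rap, and it is held back by the decoy receptor Il1r2 and by the receptor antagonist Il1rn. Much of this programme is known to run through NF-kB, whose inhibitor Nfkbia is itself one of its targets.

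Promoter sequences of 4 genes are shown because the class was defined by the balance of Il1b against the stefins, and because Cxcl2 and Nfkbia, which the rule did not use, varied along that balance. They are the 250 bases before the transcription start in RefSeq's annotation of GRCm38.p6, the mm10 assembly that the submitters' processing notes name. Capitals mark every match to the NF-kB-like letters GGGNNTTTC, read on either strand. Il1b lies at chr2:129371140-129371389 on the minus strand, Cxcl2 at chr5:90903649-90903898 on the plus strand, Nfkbia at chr12:55492648-55492897 on the minus strand and Stfa2l1 at chr16:36156561-36156810 on the plus strand.
Il1b: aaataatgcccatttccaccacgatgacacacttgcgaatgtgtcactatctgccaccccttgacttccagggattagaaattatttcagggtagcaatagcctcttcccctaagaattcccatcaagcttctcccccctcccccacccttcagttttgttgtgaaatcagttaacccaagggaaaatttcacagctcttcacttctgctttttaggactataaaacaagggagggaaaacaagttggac
Cxcl2: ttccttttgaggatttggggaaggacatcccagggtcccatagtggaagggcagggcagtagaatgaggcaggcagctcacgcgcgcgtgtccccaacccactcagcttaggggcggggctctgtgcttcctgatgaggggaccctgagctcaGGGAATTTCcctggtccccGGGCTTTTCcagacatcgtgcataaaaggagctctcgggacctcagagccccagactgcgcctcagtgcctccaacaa
Nfkbia: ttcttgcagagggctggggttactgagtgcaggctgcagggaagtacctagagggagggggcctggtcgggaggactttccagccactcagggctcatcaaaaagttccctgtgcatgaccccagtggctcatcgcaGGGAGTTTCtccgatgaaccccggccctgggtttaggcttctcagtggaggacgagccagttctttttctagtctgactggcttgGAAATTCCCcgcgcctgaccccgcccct
Stfa2l1: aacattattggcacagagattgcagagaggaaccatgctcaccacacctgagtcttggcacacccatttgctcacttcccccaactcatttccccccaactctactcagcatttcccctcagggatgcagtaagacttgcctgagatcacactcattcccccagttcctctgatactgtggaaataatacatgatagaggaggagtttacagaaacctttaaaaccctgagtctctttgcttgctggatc
The Cxcl2 window held GGGAATTTC at bases -97 to -89 and GGGCTTTTC at bases -78 to -70 from the start. In the Nfkbia window the letters were GGGAGTTTC at -113 to -105 and, on the other strand, GAAATTCCC at -28 to -20. The windows of Il1b and Stfa2l1 held none, which says only that these letters were not in these bases. In all 13 genes were searched, with 17 annotated starts, and 6 windows of 6 genes held the letters (Cxcl2, Nfkbia, Ccrl2, Cxcr2, Il1rn and Csf1). The 13 genes were picked by hand, mostly genes read in the class, with Stfa2l1 from the stefin sum. No enrichment can therefore be read from their share. Of all 32851 promoter windows of the same length 3.72% did. The C/EBP-like letters TTGCNNAA were in 0 of the 17 windows and in 9.56% of all windows. A match is a description of letters, and binding was not measured.

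Besides the genes the rule asked for, the cells carried other markers of neutrophils. Summed over the class, S100a8 and S100a9, which encode the calcium-binding protein calprotectin, stood at 72142 and 99389 UMIs per 1000000 UMIs of the class (UPM) in ND and at 76576 and 104571 UPM in HFD. Each captured molecule is read once from its 3′ end, so UPM is not scaled to gene length. They made up most of the 194435 and 206000 UPM of the 8 neutrophil markers, and the rule had fixed a lower limit for them. Of the markers the rule did not use, the granule protein gene Retnlg had 19540 and 21469 UPM, against 97.9 and 101 UPM in the B cells of the same libraries, which served as a measure of free RNA. These B cells had to hold under 2% of UMIs from S100a8 and S100a9, so B cells with more of these neutrophil transcripts were left out of the measure. The gelatinase gene Mmp9 had 862 and 904 UPM against 6.79 and 4.32 UPM. Ly6g, the surface protein by which mouse neutrophils are commonly recognised, had 114 UPM in ND and 101 UPM in HFD, against 1.67 and 1.27 UPM. The 6 markers of immature neutrophils summed to 2441 and 2444 UPM, led by Lcn2, against 105777 and 115267 UPM in the granule-rich neutrophils. Thus the class stood apart from the cells that still made secondary granules, as its rule set.

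Markers of other cell types were low but not absent. The 12 monocyte and macrophage markers summed to 461 UPM in ND and 417 UPM in HFD, none of them was at 0, and the most abundant was Ly6c2 with 216 and 185 UPM. In B cells the same list stood at 424 and 143 UPM. The 7 eosinophil markers reached 20.9 and 14.1 UPM, with Siglecf as the most abundant, and the 8 T cell markers 78.7 and 39.9 UPM. The 8 B cell markers had 230 and 305 UPM, led by Ighm in ND and Igkc in HFD, with Cd79a at 0 by the rule. Erythroid markers reached 1312 UPM in ND and 427 UPM in HFD (Hbb-bs the most abundant), and mesenchymal markers 1712 and 940 UPM (Dcn the most abundant). The Dcn UMIs sat in few cells, since 10 cells held 92.2% (ND) and 85.3% (HFD) of them. For Hbb-bs 10 cells held 85.2% in ND but 21.5% in HFD. Hemoglobin UMIs were found in 49.7% (ND) and 67.9% (HFD) of the cells of the class. Elane, an elastase of promyelocytes, had 1158 and 581 UPM, of which 10 cells held 97.32% and 94.99%. The part of doublets, attached cells and free RNA in these values was not tested, and genes with such a concentration are marked as such below.

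The class was the largest among the mature neutrophils of both libraries. It made up 18.3% of kept cells in ND (1101 of 6029, exact 95% interval 17.3 to 19.3%) and 15.8% in HFD (985 of 6224, 14.9 to 16.8%). Of the mature neutrophils it was 75.7% in ND (73.4 to 77.9%) and 77.8% in HFD (75.4 to 80.1%), so that the share within the mature cells overlapped between libraries while the share of all cells was lower in HFD. Here and below, intervals cover counting error only, not differences between mice. The cells in which the stefins outweighed the Il1b sum numbered 286 and 232, and 67 and 49 mature cells had no Il1b UMI and no excess of stefins. Depth was alike, with a median of 3214 UMIs and 1032 genes per cell in ND and 3207 UMIs and 1022 genes in HFD. Mitochondrial UMIs were 0.124% and 0.155% of a cell's total at the median.

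Il1b itself, used by the rule, had 4317 UPM in ND (4254 to 4380) and 3957 UPM in HFD (3893 to 4023). The stefin-dominant cells had 1627 and 1788 UPM, the granule-rich neutrophils 207 and 265, the monocyte and macrophage cells 262 and 280, and the B cells 23.1 and 46.1. Of all Il1b UMIs in kept cells 64.0% (ND) and 57.4% (HFD) lay in the class, a share that the rule itself raised by asking for Il1b UMIs. The decoy receptor Il1r2 had 3266 and 3415 UPM and the class held 54.4% and 49.7% of its UMIs. Ccrl2, an atypical receptor that binds chemerin without signalling, had 747 and 445 UPM, with 53.1% and 46.2% of its UMIs in the class. Csf3r had 1220 and 1186 UPM, and Cxcr2 had 408 and 410 UPM. The monocyte and macrophage cells were classed by Csf1r with Cd68 or Lyz2 and by having no Csf3r UMI, so Csf3r was at 0 there by choice, while Cxcr2 stood at 0.833 and 0.273 UPM. The plot of levels by class shows these genes side by side.

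From cell to cell these genes varied widely. A cell of the class held a median of 11 Il1b UMIs in either library, up to 159 in ND and 147 in HFD, and 45 and 50 cells held a single one. For Il1r2 the median was 10 UMIs in both, and for Csf3r it was 4. Ccrl2 had a median of 1 UMI in ND and 0 in HFD. The stefin sum was 0 in 50.5% (ND) and 52.8% (HFD) of the cells, and so was its median. Near the limit, 13 and 11 cells had equal sums and entered, while 16 and 14 had 1 UMI too few and did not. In 148 ND and 141 HFD cells of the class the Il1b sum was at most 2 times the stefin sum, and outside the class 127 and 112 cells with Il1b had a stefin sum within that range. Granule genes at 0.25 to 0.5% of UMIs were found in 40 and 49 cells inside, and at 0.5 to 1% in 24 and 46 cells outside. The highest granule share inside was 0.492% and 0.499%.

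The class transcribed a set of chemokine and cytokine genes that the rule did not use. Cxcl2, a ligand of Cxcr2 that draws in further neutrophils, had 6242 UPM in ND (6166 to 6319) and 6045 UPM in HFD (5965 to 6126). The monocyte and macrophage cells had 1462 and 1060 UPM, and the B cells 76.1 and 26.0 UPM. Of all Cxcl2 UMIs 52.9% and 49.7% lay in the class, a share near that of Il1r2. Ccl6 was at 3917 and 4015 UPM, Ccl4 at 740 and 877 UPM and Ccl3 at 520 and 437 UPM. The receptor antagonist Il1rn reached 484 and 399 UPM, with 49.2% and 43.5% of its UMIs in the class. Nlrp3, the sensor of an inflammasome, had 587 and 456 UPM. Its adaptor Pycard had only 30.1 and 14.1 UPM and Casp1, the protease that cleaves IL-1β, 14.2 and 14.97 UPM. Il1a stood at 25.5 and 13.3 UPM, and the signalling receptor Il1r1 at 1.44 and 3.05 UPM, from 6 and 11 UMIs.

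Among other cytokine genes, Ptgs2, which encodes the inducible cyclooxygenase, had 405 and 345 UPM, Osm (oncostatin M) 216 and 189 UPM, Csf1, the growth factor of macrophages and osteoclast precursors, 179 and 138 UPM, and Tnf 109 and 70.7 UPM. For Tnf the class held 15.5% and 13.6% of the library's UMIs and for Ccl3 20.4% and 25.1%, well below its share of Il1b. Receptors for cues from tissue were also read: Ccr1 had 854 and 940 UPM, the complement receptor C5ar1 815 and 714 UPM, and Cxcr4, which holds neutrophils in marrow, 544 and 533 UPM. Cebpb, a transcription factor of granulocytes under stimulation, stood at 4887 and 5710 UPM.

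The chemokine genes were not read evenly from all cells. To compare shares at 1 depth, each cell was thinned to 1000 UMIs, which left out 1 ND cell of the class. Cxcl2 was then found in 78.4% of cells in ND (75.8 to 80.8%) and 80.0% in HFD (77.4 to 82.5%), against 2.45% and 1.71% of B cells. B cells had median depths of 3934 and 3901 UMIs. Ccl3 or Ccl4 was found in 38.9% and 41.0% of the class, Il1rn in 36.2% and 30.8%, Ccrl2 in 34.6% and 26.4%, and Tnf in 10.4% and 6.396%. In B cells the shares for Il1rn were 0.545% and 0.143%, and for Tnf 1.09% and 0.428%. Ccl3 was found in 1.43% and 0.927% of B cells and Ccl4 in 2.38% and 1.43%. All these genes stood above the free RNA level, as measured in B cells with under 2% of UMIs from S100a8 and S100a9. Ccrl2, at 1.84% and 0.927% in B cells, is a gene of the rule, so its excess was in part set by the rule. Without thinning, Cxcl2 was found in 87.5% and 89.5%, Ccrl2 in 52.0% and 41.9% and Tnf in 22.3% and 15.3% of the class. After thinning, cells with Ccl3 or Ccl4 also carried Ccrl2 in 46.5% (ND) and 35.6% (HFD) of cases, against 27.1% and 20.0% of cells without them.

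A few cells carried much of some programmes. The 10% of cells with most UMIs of a gene (110 ND and 98 HFD cells) held 63.1% and 63.7% of the Ccl3 and Ccl4 UMIs and 65.1% and 59.9% of those of Isg15, Rsad2, Ifit1, Ifit3 and Oasl2, genes that interferon induces. For Il1b they held 32.7% and 29.5%, for Il1r2 27.0% and 27.1%, and for Cxcl2 39.3% and 38.6%. Csf3r was the most even, with 23.1% and 22.3%. At least 1 of these 5 interferon genes was found in 45.5% (ND) and 54.9% (HFD) of the cells, and in 28.9% and 33.1% after thinning. The cells with most of these UMIs were no deeper than others, as they held 10.1% and 9.44% of all UMIs of the class.

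Against the stefin-dominant mature neutrophils, the next class in the same gate, genes of the NF-kB pathway and of cytokines stood higher and those of secondary granules lower. This contrast is the one the rule cut, so its ratios describe the classes and nothing is read from the counts. Of 3672 genes with at least 100 UMIs over both classes in each library 15 were at least 2-fold higher in both libraries (0.408%) and 10 at least 2-fold lower in both (0.272%). The median of all genes was 0.12 in ND and 0.12 in HFD on the log2 scale, and list medians are to be read against it. It was 0.03 and 0.08 when the totals left out S100a8, S100a9, Malat1 and mitochondrial genes.

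The 15 genes at least 2-fold higher in both libraries had various functions. Bcl2a1b, an inhibitor of apoptosis induced by NF-kB, had 177 and 185 UPM in the class and 39.0 and 77.9 UPM in the stefin-dominant cells, a log2 ratio of 2.17 in ND (1.79 to 2.61) and 1.24 in HFD (0.93 to 1.59). Its near-identical copy Bcl2a1d was also in this group, and reads of the 2 genes can be hard to tell apart. Clec4n, the receptor dectin-2, had 77.2 and 62.1 UPM against 16.3 and 8.16 UPM, a ratio of 2.21 (1.63 to 2.92) and 2.85 (1.98 to 4.08). For Csf1 the stefin-dominant cells had 78.1 and 53.5 UPM, and the ratio was 1.20 (0.91 to 1.50) and 1.35 (0.97 to 1.78). Tgm2, a transglutaminase, had ratios of 1.43 and 1.18, Wfdc17 of 1.08 and 1.52, the integrin chain Itga4 of 1.83 and 1.38, the checkpoint ligand Cd274 of 1.19 and 1.12, and the lysosomal protease Ctss of 1.22 and 1.27. Isg15, an interferon-induced modifier, had 434 and 534 UPM against 176 and 206 UPM, and Rsad2, an antiviral enzyme, 114 and 146 UPM against 45.4 and 58.0 UPM. Gngt2, Gm2a, Usp37 and AW011738 complete the group. In 13 of the 15 genes enough UMIs remained when the 1% of cells with most UMIs of the gene was left out of each class, and all 13 stayed 2-fold higher in both libraries.

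The 10 lower genes were the stefins Stfa2 and Csta3, which belong to the family used by the rule, and Abi3bp, Apod, Cd34, Clec3b, Ctla2a, Fstl1, Mfap5 and Ppp1r14b. Several of them are genes of fibroblasts or endothelium, and in none of the 10 did enough UMIs remain without the 1% of cells that held most of them. Retnlg, a resistin-like protein of neutrophil granules, had 19540 and 21469 UPM against 34437 and 30972 UPM, a ratio of -0.82 and -0.53. Ly6g had a ratio of -1.22 (-1.42 to -1.02) and -0.61 (-0.87 to -0.34). Mmp8, the neutrophil collagenase, stood at 761 and 783 UPM against 1346 and 987 UPM. These 3 genes were lower in both libraries and by more in ND.

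Over all genes 1694 of 3672 were higher in both libraries and 701 lower in both, by any amount. By list, 23 of 25 genes of the NF-kB pathway and its feedback were higher in both libraries, with medians of 0.50 (ND) and 0.51 (HFD). Nfkbia had 2635 and 1954 UPM against 1624 and 1337 UPM, and Gadd45b, a stress sensor, 888 and 812 UPM against 368 and 489 UPM. In the IL-1 and IL-18 list, where Il1b and Il1r2 belong to the rule, 6 of 6 genes outside the rule were higher in both, with medians of 0.51 and 0.39. Il1rn had a ratio of 0.68 and 0.47 and Nlrp3 of 0.69 and 0.53. Growth factor and cytokine receptors were higher in both in 16 of 18 genes (0.40 and 0.38), and chemokine ligands in 6 of 8 (1.08 and 0.50). Cxcl2 contributed 1.10 (1.05 to 1.15) and 0.68 (0.64 to 0.73), and Ccl3 1.06 and 0.95. Interferon-stimulated genes were higher in both in 15 of 20 (0.39 and 0.69), and genes of tissue neutrophils in 15 of 17 (0.58 and 0.49). Of the secondary granule genes 0 of 12 were higher and 8 lower in both (-0.59 and -0.31). The NADPH oxidase, with medians of 0.16 and 0.19, and actin and motility genes, with 0.12 and 0.14, stayed near the median of all genes. Primary granule genes had medians of 0.64 in ND and -1.02 in HFD, cell cycle genes of 0.03 and -0.80, mitochondrially encoded genes of 0.05 and -0.33 and heat shock genes of -0.06 and -0.36. Against the median of all genes, only the first of these 4 lists lay on opposite sides in the 2 libraries, as did, among others, the glucocorticoid response (-0.05 and 0.46) and the receptors for neuropeptides and neural ligands (0.15 and -0.18, from 3 genes). Without the 1% of cells with most UMIs of each gene the primary granule medians were 0.66 and -0.62 and the cell cycle medians -0.03 and -0.12. Here and below, such medians cover only the genes that kept at least 100 UMIs, so they can rest on fewer genes. The plot of list medians gives them side by side.

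**Figure D1:**
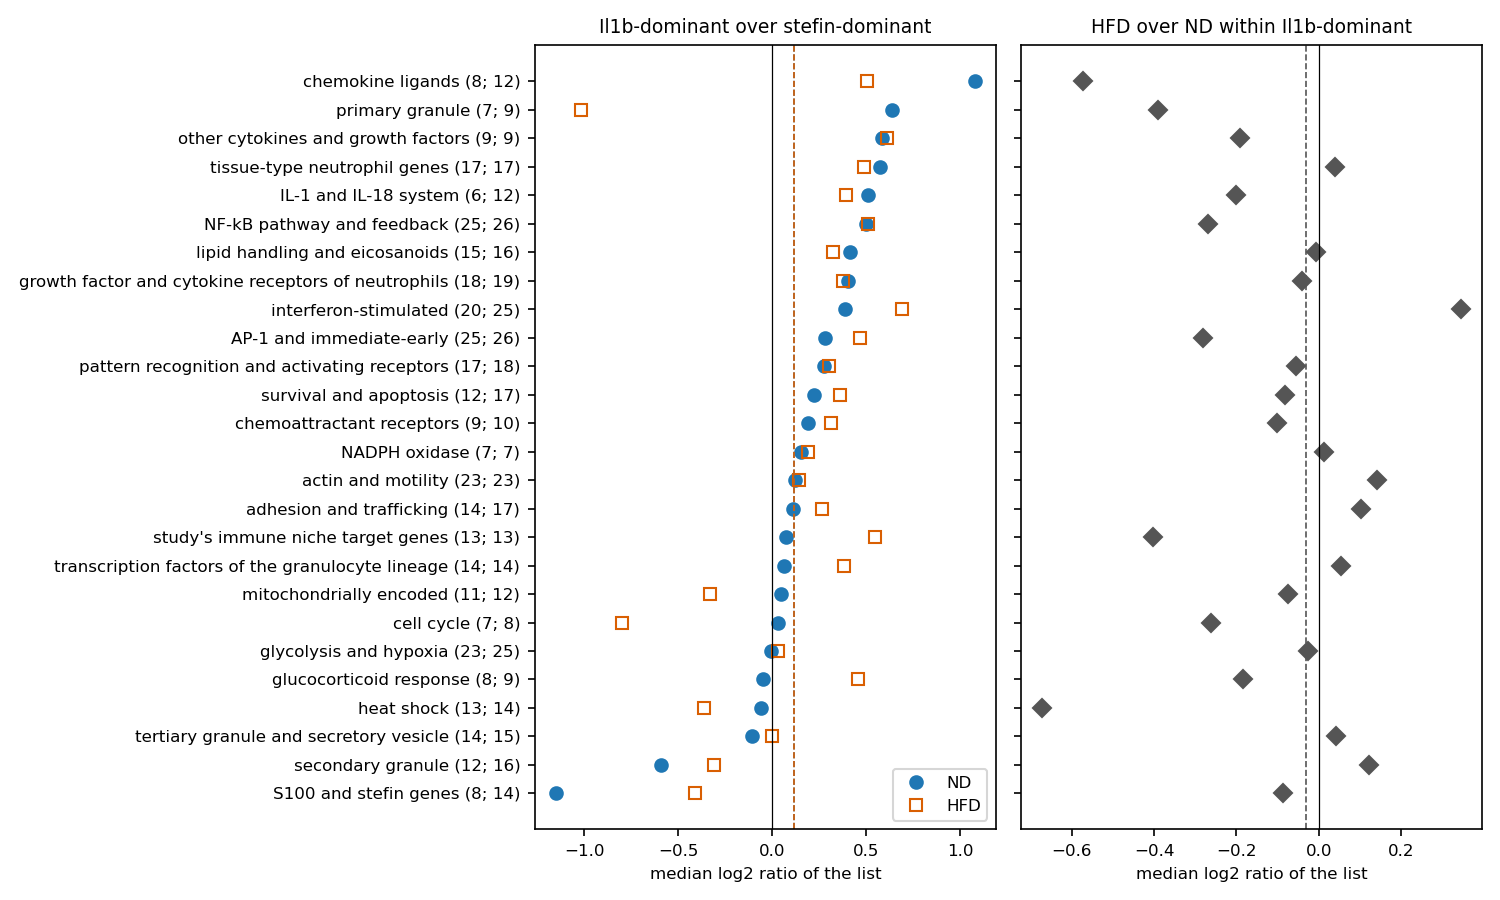
Median log2 ratio of each gene list, for Il1b-dominant over stefin-dominant cells (left; ND filled, HFD open) and for HFD over ND within the Il1b-dominant cells (right). Dashed lines mark the median of all genes, and numbers in brackets give the genes with enough UMIs on the left and on the right, where the genes of the rule are included. NF-kB, cytokine and chemokine lists lie right of the dashed lines on the left side, and secondary granule genes left of them.

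Levels were also followed within the mature neutrophils. All mature neutrophils were placed on a score, the log2 ratio of the Il1b sum plus 1 to the stefin sum plus 1, and split into 6 ranges. The highest range, above 3, held 650 ND and 596 HFD cells, and the lowest, at -1 or less, 151 and 119. Median depth was 3170.5 and 3242.5 UMIs in the highest range and 4175 and 3862 in the lowest. Cxcl2 went from 2058 UPM in the lowest ND range to 6545 in the highest, and from 3834 to 6194 UPM in HFD, where it first fell to 2726 UPM between -1 and 0 and stood at 5566 UPM between 0 and 1. Nfkbia went from 1362 to 2761 UPM in ND and from 1377 to 1996 UPM in HFD, again with a lower value (998 UPM) between -1 and 0. The level of Gadd45b was 317 and 485 UPM in the lowest range and 951 and 818 in the highest, and that of Bcl2a1b 25.7 and 55.3 against 193 and 199 UPM. For these 4 genes the 3 ranges above 1 differed less among themselves than from the lowest range. Retnlg (38188 and 33523 UPM in the lowest range) and Mmp8 (1595 and 1097 UPM) reached their later level already between -1 and 1, and stood at 19040 and 22398 UPM and at 753 and 854 UPM in the highest. Isg15 stood at 114 and 214 UPM in the lowest range and at 474 and 623 UPM in the highest, where it was still higher than in the range below (388 and 490 UPM). In HFD Elane stood at 3323 UPM in the lowest range, 7501 between -1 and 0, 4060 between 0 and 1 and 37.7 in the highest. Its part in the lower Cxcl2 and Nfkbia values between -1 and 0 was not tested. The score and all genes given here were read from the same cells, and part of the order comes from the rule.

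**Figure D2:**
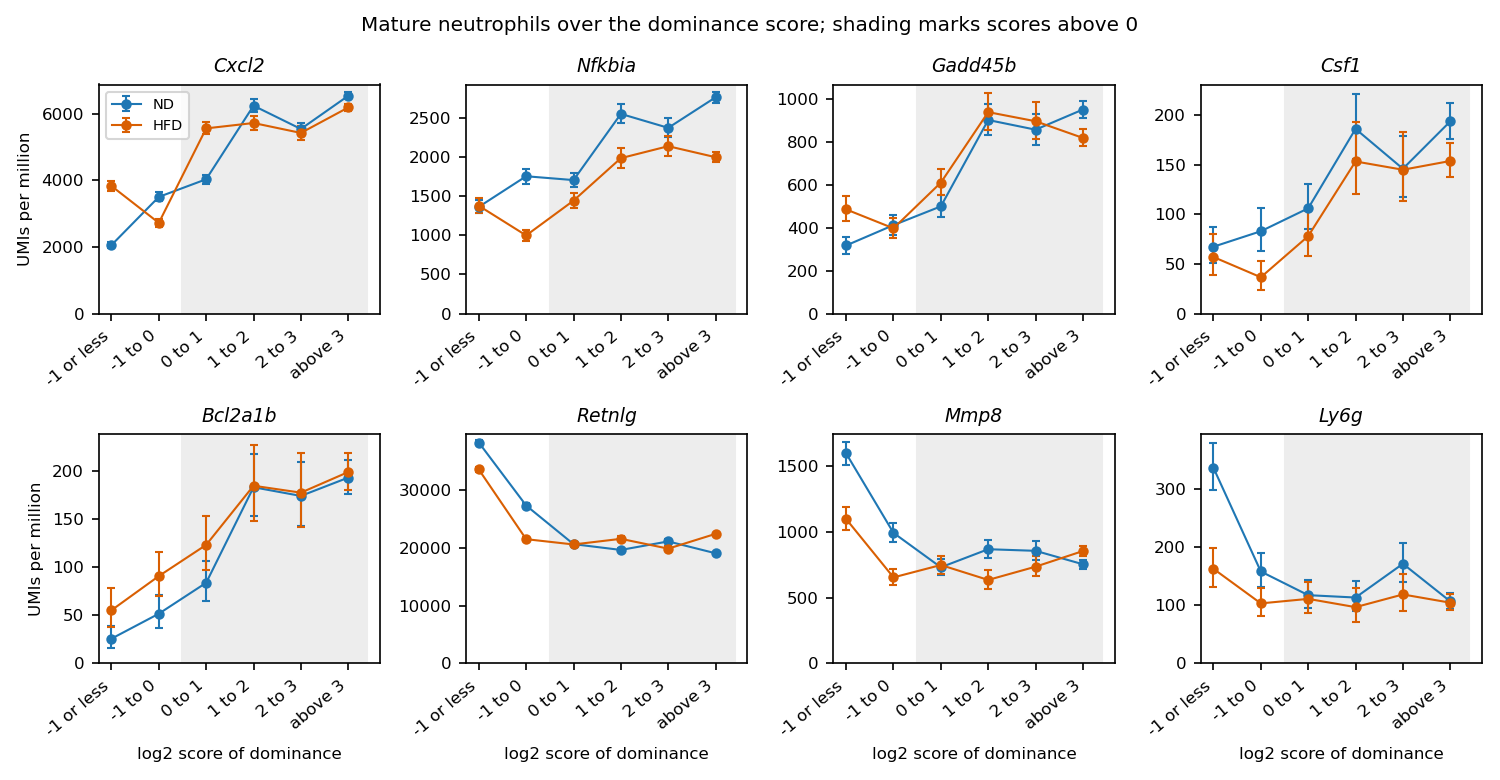
UMIs per 1000000 UMIs of 8 genes in the mature neutrophils over 6 ranges of the log2 dominance score, for ND (blue) and HFD (orange), with exact Poisson 95% intervals; shading marks scores above 0. Cxcl2, Nfkbia, Gadd45b, Csf1 and Bcl2a1b are lowest at scores of 0 or less and level off above 1, while Retnlg, Mmp8 and Ly6g are highest in the lowest range.

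Few genes of the class differed by 2-fold between the diets. Of 4814 genes with at least 100 UMIs over both libraries 29 were at least 2-fold higher in HFD (0.602%) and 60 at least 2-fold lower (1.25%), and the median of all genes was -0.03 on the log2 scale. Each value compares 1 library with 1 library. In 22 of the 29 higher and 47 of the 60 lower genes, 10 cells held over 50% of the UMIs in the library where the gene was higher. Prg4, the lubricin gene of joint and tendon cells, had the highest ratio with 108 UPM in ND and 939 UPM in HFD (log2 3.12, 2.97 to 3.26), but 10 cells held 93.56% and 94.98% of it. It was found in 1.45% and 6.29% of thinned cells of the class and in 0.954% and 4.78% of B cells. Sparcl1 (2.80), Myoc (2.04), Fabp4 (1.40) and Aqp1 (1.39) and, on the other side, Fmod (-3.01), Sfrp4 (-2.91), Thbs4 (-2.31), Col1a1 (-2.23) and Hba-a1 (-1.80) are likewise genes of fibroblasts, tendon, vessels, fat or red cells. Without the 5% of cells with the highest doublet scores (Scrublet) the ratios of Prg4 and Fabp4 both turned to -0.48, and without the 1% of cells with most UMIs of the gene Hba-a1 turned to 0.62 and Col1a1 to 0.99.

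When the 1% of cells with most UMIs of a gene was left out of each library, 8 of the 29 higher genes kept enough UMIs and 7 of them stayed 2-fold higher: Acot1, Fabp4, Oscp1, Parp14, Prg4, Rtp4 and Tinf2. Acot1, an acyl-CoA thioesterase that frees fatty acids, had 23.6 UPM in ND and 66.5 UPM in HFD (log2 1.49, 1.15 to 1.85), and its ratio was 1.99 in the stefin-dominant and 0.73 in the granule-rich neutrophils. Of the 60 lower genes 23 kept enough UMIs and 11 stayed 2-fold lower, among them Jun, Rhob, Tsc22d3, Tagap and the chaperones Hsp90aa1, Hspa1a and Hspa1b.

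**Figure D3:**
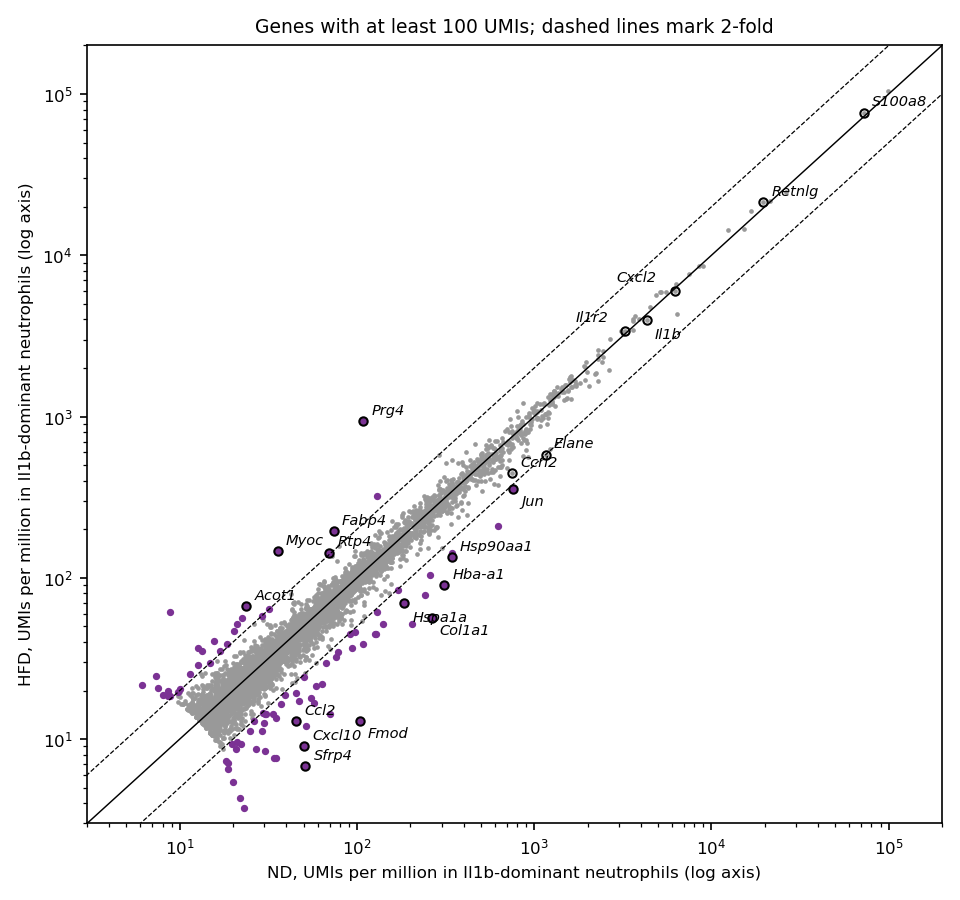
Level of each gene with at least 100 UMIs in the Il1b-dominant neutrophils, in UMIs per 1000000 UMIs, ND against HFD (both log axes; 0.5 UMI was added). Dashed lines mark 2-fold, purple points lie on or beyond them and open circles mark named genes. Il1b, Il1r2, Cxcl2, Retnlg and S100a8 lie near the diagonal, Prg4 farthest above it and Fmod among the farthest below.

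Il1b, Il1r2, Csf3r and Ccrl2 are genes of the rule, and each cell of both libraries was admitted on their counts, so their ratios between diets are a description. Il1b was lower in HFD by a log2 ratio of -0.13 (-0.16 to -0.09), Il1r2 higher by 0.06 (0.03 to 0.10), though just below 0 after thinning each cell to 1000 UMIs, and Cxcl2 lower by -0.05 (-0.07 to -0.02). Csf3r had -0.04 (-0.10 to 0.02) and Cxcr2 0.01 (-0.09 to 0.11), so the intervals of both included 0, and the sign of Cxcr2 turned with the processing. Ccrl2 was lower in HFD by -0.75 (-0.84 to -0.66), and by -0.77 without the 1% of cells that held most of it. In granule-rich neutrophils, monocyte and macrophage cells and B cells Ccrl2 was also lower (-0.45, -0.45 and -0.58), while in the stefin-dominant cells the summed level was higher (0.36), although Ccrl2 was found there in 31.1% of ND and 28.0% of HFD cells (14.3% and 14.2% after thinning). Il1rn had -0.28 (-0.38 to -0.18), Nlrp3 -0.36 (-0.45 to -0.27) and Tnf -0.62 (-0.85 to -0.40).

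Of all 4814 genes 2164 were higher in HFD and 2650 lower. Of the 10 genes of the IL-1 and IL-18 system outside the rule that had enough UMIs 4 stood higher in HFD and 6 lower. Their median was -0.31, or -0.26 without the 1% of cells with most UMIs of each gene, over the genes that kept at least 100 UMIs. Pycard alone was past 2-fold (-1.08), from 125 and 51 UMIs, too few for a ratio without that 1%. Among 12 chemokine ligands 3 were higher and 9 lower, with a median of -0.57. The median was -0.015 when the 1% of cells with most UMIs of each gene was left out. It then covered only the genes that kept at least 100 UMIs, and genes of few cells can drop out there, so these medians need not rest on the same genes. The 4 past 2-fold, all lower, were Cxcl10 (50.04 UPM in ND and 8.87 UPM in HFD), Ccl2 (45.2 and 12.7 UPM), Ccl7 and Cxcl1. Of all genes tested 1.25% were at least 2-fold lower in HFD. Cxcl10 was found in 1.82% and 1.02% of thinned cells and Ccl2 in 1.27% and 0.711%, so these 2 were genes of few cells. The abundant ligands moved less and to both sides, with Ccl3 at -0.25 (-0.34 to -0.16) and Ccl4 at 0.24 (0.17 to 0.32). The summed UMIs of the list were nearly the same, at 11830 and 11575 UPM.

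Immediate-early, NF-kB and heat shock genes were lower in the HFD library. Jun, a subunit of AP-1, had 760 UPM in ND and 353 UPM in HFD, a log2 ratio of -1.11 (-1.20 to -1.01). Fos stood at 902 and 624 UPM, although more cells of the class held it in HFD (61.8% against 56.6%, and 33.3% against 30.3% after thinning). The flow- and quiescence-related factor Klf2 stood at 1228 and 628 UPM, and Zfp36, which destabilises cytokine RNAs, at 919 and 565 UPM. Over all genes 2650 of 4814 were lower in HFD and 2164 higher, and the counts of each list are to be read beside that. Of the 26 AP-1 and immediate-early genes 23 were lower and 3 higher (median -0.28), with Jun past 2-fold. Of 26 NF-kB genes 23 were lower and 3 higher (median -0.27), none past 2-fold, and Nfkbia had -0.43 (-0.47 to -0.39). Of 14 heat shock genes 11 were lower and 3 higher, with a median of -0.67. It was -0.32 without the 1% of cells with most UMIs of each gene, over the genes that kept at least 100 UMIs. Hspa1a, Hspa1b, Hsp90aa1 and Hspe1 were past 2-fold, where 1.25% of all genes were at least 2-fold lower. Hspa1a had 184 and 69.6 UPM, and with its near-identical copy Hspa1b it was found in 20.3% and 9.44% of cells. The 13 genes that the study names as targets in its immune niche were all lower in HFD (median -0.40, Jun alone past 2-fold), but that list was chosen on these samples and is no independent evidence of its direction.

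The same lists were lower in every class examined, and by more in most of them. For the summed AP-1 list the log2 ratio was -0.22 (-0.23 to -0.20) in the class, -0.65 in the stefin-dominant and -0.84 in the granule-rich neutrophils, -0.49 in monocyte and macrophage cells and -0.51 in B cells. The summed heat shock list had -0.47 in the class, -0.35 in the stefin-dominant neutrophils, -0.85 in the granule-rich neutrophils, -0.60 in monocyte and macrophage cells and -0.66 in B cells. For the NF-kB list the values lay between -0.24 and -0.36 over these 5 classes, with -0.25 in the class. Jun alone had -2.51 in the stefin-dominant and -2.37 in the granule-rich neutrophils, against -1.11 in the class. Diet and any difference in how the 2 libraries were made cannot be told apart here.

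**Figure D4:**
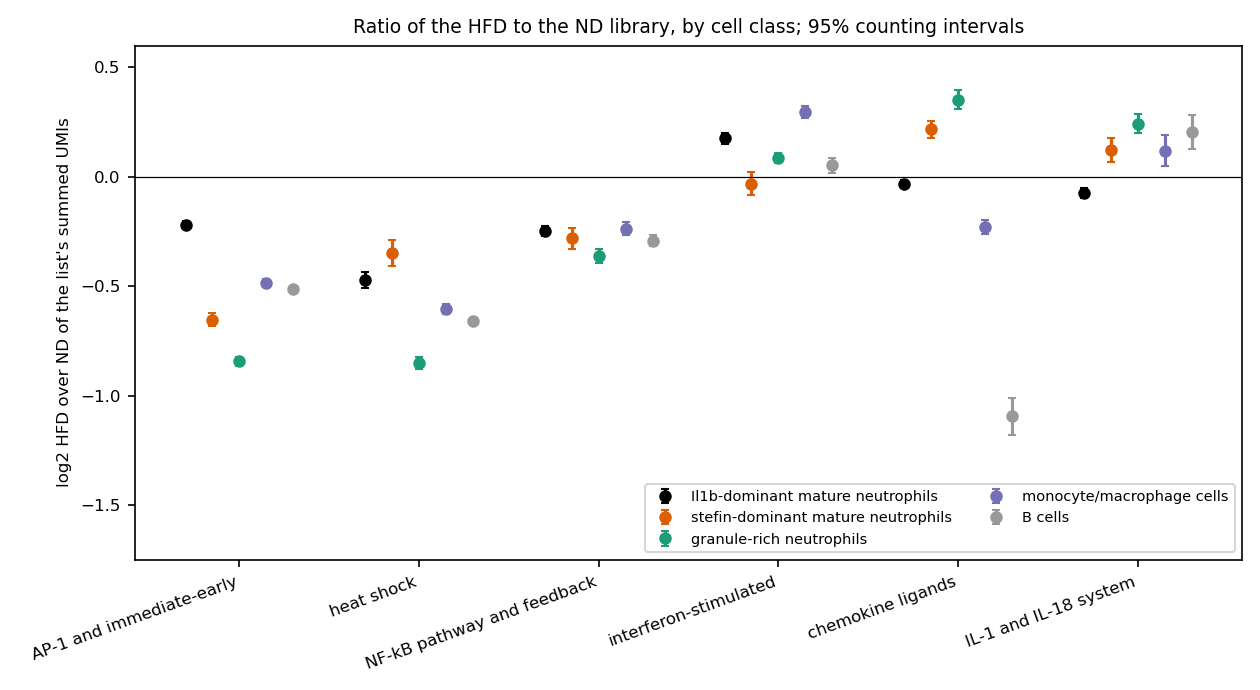
Log2 ratio of HFD over ND of the summed UMIs of 6 gene lists in 5 cell classes, with 95% counting intervals. AP-1, heat shock and NF-kB lists lie below 0 in all 5 classes, and the AP-1 ratio is nearest to 0 in the Il1b-dominant neutrophils; the interferon-stimulated list lies above 0 in 4 classes and its interval includes 0 in the stefin-dominant cells.

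Interferon-stimulated genes were the list with the highest median in HFD. Of 25 genes with enough UMIs 22 were higher and 3 lower, with a median of 0.35, and Rtp4 and Ifit3 were past 2-fold against 0.602% of all genes. Rtp4, a chaperone of receptors that interferon induces, had 69.5 UPM in ND and 143 UPM in HFD (1.04, 0.83 to 1.25), and its ratio was 0.39 in the stefin-dominant and 0.75 in the granule-rich neutrophils and 1.58 in monocyte and macrophage cells. Ifi27l2a stood at 289 and 575 UPM (0.99, 0.89 to 1.10), and was near 2-fold in the stefin-dominant cells too (1.03). Ifit3 rested on 31 and 74 UMIs. Isg15 had 0.30 (0.20 to 0.39) and Rsad2 0.35 (0.17 to 0.54). The summed list stood at 6680 and 7541 UPM in the class (0.17, 0.15 to 0.20). Its log2 ratio was -0.03 (-0.08 to 0.02) in the stefin-dominant cells, 0.09 in the granule-rich neutrophils, 0.30 in monocyte and macrophage cells and 0.05 in B cells.

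Primary granule genes had a median of -0.39, with 1 of 9 higher and 8 lower, but their most abundant members sat in few cells (Elane above). The median was -0.11 without the 1% of cells with most UMIs of each gene, over the genes that kept at least 100 UMIs. Cell cycle genes had -0.26, with 1 higher and 7 lower. Actin and motility genes had a median of 0.14 (17 of 23 higher), secondary granule genes outside the rule of 0.02 (7 of 13 higher) and adhesion genes of 0.10 (12 of 17 higher). Lipid handling genes had -0.01, with 8 higher and 8 lower. Cd36 and Fabp4 were past 2-fold higher, where 0.602% of all genes were at least 2-fold higher. Cd36 had 7.22 and 24.4 UPM, and 10 cells held 76.7% and 84.1% of its UMIs, while the ratio of Fabp4 turned with the doublet scores as given above. Growth factor and cytokine receptors other than Csf3r had -0.04, NADPH oxidase genes 0.01, glycolysis and hypoxia genes -0.03, and pattern recognition receptors -0.06. In these lists no more than 2 genes passed 2-fold on either side. Receptors for neuropeptides and neural ligands, which bear on the question of the study, were low: they summed to 241 and 224 UPM and 4 of 28 had enough UMIs for a ratio, with a median of 0.09, and the most abundant was Ramp1, a part of the receptor for CGRP, at 101 and 104 UPM.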

How the data were processed

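Periosteal cells of 1 pooled library per diet were measured by droplet single-cell RNA sequencing. The authors made the deposited counts, whole numbers of UMIs per gene and barcode without normalization, with Cell Ranger 6.0.1 on mm10, per the submitters' processing notes. The matrices list 32285 genes, and 0 of their columns belong to other series. Depth per library and per cell stands in the report and sets the counting intervals: exact Clopper-Pearson for shares, exact Poisson for levels and exact conditional binomial for ratios (95%), with up to 3 counts allowed for a count of 0. PCR copies were collapsed by UMI.

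Cells were filtered as in the methods of the paper and classed by fixed limits on counts. Granule-rich neutrophils, monocyte and macrophage cells and B cells were classed likewise, B cells by Cd79a and Cd79b. Both the monocyte and macrophage cells and the B cells also had to hold under 2% of UMIs from S100a8 and S100a9. Ratios are log2 ratios of UMIs summed over a class, scaled to class totals, with 0.5 UMI added. A gene needed at least 100 UMIs, and 2-fold was the limit for counting it. With 1 library per diet no test was made, and no samples were averaged. Code was tested on simulated data. Members and the 27 gene lists (504 genes, of which 1 was not analysed here) were chosen with earlier results of these data known. Named genes were drawn from those of the rule, the 3 most abundant genes of each list, list genes past 2-fold, the 10 highest and lowest ratios of each comparison among genes with at least 200 UMIs, and the 10 most abundant genes. Not all of these are given in the text, and other genes it names were chosen after their values were seen. Scrublet (in scanpy 1.11.5) called 9 ND and 23 HFD cells, 0.149% and 0.370%, too few for its threshold to have worked, so doublets were kept and the 5% of cells with the highest scores were left out as an alternative. Other alternatives changed the limits of the rule, the depth, the scaling, the minimum count and the fold. Figures were drawn with matplotlib 3.10.9, and values were computed with numpy 2.4.6, pandas 2.3.3 and scipy 1.17.1 under Python 3.11.15.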

Additional observations from a re-analysis of the deposited data

Results flagged for a closer look

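Fabp4, a lipid carrier of fat and vessel cells, was higher in HFD in the Il1b-dominant neutrophils (log2 ratio 1.40) and lower in the stefin-dominant ones (-1.89). Myoc had 2.04 and -1.62, and Nbl1 had 1.33 and -1.13. They stand here because the same contrast had opposite signs in neighbouring classes, and the difference was not tested. In the Il1b-dominant cells 10 cells held 85.0% (ND) and 82.5% (HFD) of the Fabp4 UMIs and 92.6% and 96.8% of those of Myoc. In the stefin-dominant cells Fabp4 was found in 3.50% of ND and 12.1% of HFD cells, which goes the other way from its summed level there. Without the 5% of cells with the highest doublet scores the ratio of 1.40 turned to -0.48.

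Outside the cell filter, 6 ND and 7 HFD barcodes met the rest of the rule, all with 500 detected genes or fewer and with a median of 786.5 and 1098 UMIs. They were not used in any comparison.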

How the results depend on the processing

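No paired analysis was possible because the cells of each diet lie in 1 pooled library, so the replicate numbers of the labels have no values of their own, and no replicate could be left out. The share of kept cells in the class was 16.0% (ND) and 13.7% (HFD) when the Il1b sum had to be at least 2 times the stefin sum, 14.7% in HFD with granule genes under 0.2%, 16.5% and 14.4% with S100a8 and S100a9 at least 5%, 14.2% and 12.98% without cells holding a B cell, T cell or macrophage marker, and 13.1% and 10.8% after thinning to 1000 UMIs. It was lower in HFD in each of these. Counts of 2-fold genes moved with the limits. For HFD over ND (29 higher, 60 lower) there were 19 higher with S100 genes at least 5%, 14 higher without the 5% highest Scrublet scores, 5 and 11 after thinning, 94 and 186 at 1.5-fold, 170 and 325 with a minimum of 20 UMIs, 5 and 19 with 500, 37 lower from the mean of each cell's share, and 13 and 17 when the 1% of cells with most UMIs of the gene was left out. For Il1b-dominant over stefin-dominant cells (15 higher, 10 lower) there were 8 and 28 with S100 genes at least 5%, 16 lower without marker-positive cells, 7 and 0 after thinning and likewise 7 and 0 with 500 UMIs, 110 and 51 at 1.5-fold, 49 and 76 with 20 UMIs, and 26 higher from the mean of each cell's share. Over 142 named genes and all alternatives 5642 values were compared. Of these 4570 were marked as the same and 1059 as moved, and 13 of those with a ratio past 2-fold changed sign. Hba-a1 and Hba-a2 turned to 0.95 and 1.06 with S100 genes at least 5%, to 0.94 and 0.84 without marker-positive cells, to 0.34 and 0.67 after thinning, and to 0.62 and 0.77 without the 1% of cells. Without that 1% Col1a1 turned to 0.99 and Col1a2 to 0.87. Without the highest Scrublet scores Fabp4 turned to -0.48, Prg4 to -0.48 and Abi3bp in ND to 0.23. The alternatives by Scrublet score and by the 1% of cells were chosen after seeing the data, and the cause of each move was not tested beyond the smaller number of cells or genes that some leave.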
